A study of Homo sapiens with 4 samples.

Results

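The 10 genes described here are *NFE2L2*, which encodes the transcription factor NRF2, *KEAP1*, which encodes its repressor, and 8 genes that NRF2 is known to drive or that act beside its targets in cystine uptake, glutathione synthesis and the removal of peroxides, quinones and heme. They are 10 of the 22578 genes in the deposited expression table, were found there by gene symbol, and all were among the 21783 genes tested. The list was picked on the basis of the rise of *SLC7A11* in shKDM2B cells against a list of stress response genes, in the same contrast that is described below. The contrast is therefore no independent test of these genes, and their values are given as a description, without p-values.

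RNA came from U87MG, an established human glioblastoma cell line. Retrovirus delivered a hairpin that targets either firefly luciferase, a gene human cells lack (shControl), or *KDM2B* (shKDM2B), which encodes an H3K36 demethylase. Each group had 2 libraries, all under puromycin at 1 µg/ml from day 3 and harvested on day 9 after transduction on day 1; the labels give passage 5 at seeding and passage 8 for the samples. The replicates are called biological without a statement of what separates them, so that p-values rest on a spread between libraries that may be purely technical, and the sources used here do not say which *KDM2B* hairpin is in which library. *KDM2B* itself was at 41.9 and 43.0 CPM (the count relative to the library total, scaled by TMM) in shControl and at 14.7 and 13.3 in shKDM2B. Libraries held 30470803 to 33770421 counts. Of the glial and mesenchymal markers of this line, *VIM*, *CD44*, *NES*, *SLC1A3* and *GFAP* were detected in every library, with *GFAP*, the defining astrocyte marker, at only 68 to 172 counts. Their summed CPM was 6320 and 6420 in shControl and 3690 and 3680 in shKDM2B, a sum carried by *VIM* and *CD44*, which were called lower, whereas *GFAP* was called higher and *SLC1A3* and *NES* were not called. The sums of 4 neuronal markers were 177 to 183 and 235 to 240, carried by *TUBB3* (not called), with *SYP* called higher, *SNAP25* lower and *RBFOX3* not called. Of the leukocyte markers, *PTPRC*, the defining one, had 3 to 10 counts, *CSF1R* 364 to 542 and *CD68* 7858 to 8402, with sums of 293 and 301 CPM against 236 and 242. The endothelial marker *VWF* had 10 to 36 counts and was called higher, and *PECAM1* and *CDH5* were not analysed here. The part of these markers in the results was not tested. In bulk RNA, fewer cells of a type and less RNA per cell cannot be told apart.

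In unstressed cells KEAP1 holds NRF2 in the cytoplasm and presents it to a CUL3 ubiquitin ligase for degradation. Oxidants and electrophiles modify cysteines of KEAP1, NRF2 then accumulates and, paired with a small MAF protein, binds antioxidant response elements near its targets, where the repressor BACH1 competes for the same sites. Because NRF2 is controlled mainly through protein stability, the level of its mRNA says little about its activity. Among its targets, SLC7A11 is the light chain of the cystine/glutamate antiporter xc-, the cystine it brings in is reduced to cysteine, and the ligase of GCLC and GCLM joins cysteine to glutamate in the rate-limiting step of glutathione synthesis. GPX4 uses glutathione to reduce lipid peroxides and so protects cells from ferroptosis.

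RefSeq promoter windows (GRCh38.p14, 250 bases before to 50 after the start of the gene) matched 8 of the 10 genes; *SLC7A11* and *HMOX1* had no entry. The core of the antioxidant response element was searched as TGACNNNGC on both strands and was present in 2 of the 8 windows, *GCLM* and *TXNRD1*, and in 13.6% of all 27305 windows. The amino acid response core TGATGNAA was in none of the 8 and in 3.67% of all. In *GCLM* the match, GCTTAGTCA, lies on the strand opposite to the gene and begins 34 bases before the start. In *TXNRD1* the match TGACTTCGC begins 99 bases before the start, and GCTCCGTCA on the opposite strand begins 8 bases before it and runs past it. The 250 bases before the start are shown for both subunits of glutamate-cysteine ligase, the fold changes of which had opposite signs, and for *TXNRD1*, with matches that lie wholly within them in capitals.
GCLC (chr6:53545102-53545351, reverse strand): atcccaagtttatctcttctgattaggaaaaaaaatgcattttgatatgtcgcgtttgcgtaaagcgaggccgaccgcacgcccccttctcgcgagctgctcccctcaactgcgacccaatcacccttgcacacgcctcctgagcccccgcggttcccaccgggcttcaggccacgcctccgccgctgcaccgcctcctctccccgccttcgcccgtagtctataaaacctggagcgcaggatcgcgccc
GCLM (chr1:93909431-93909680, reverse strand): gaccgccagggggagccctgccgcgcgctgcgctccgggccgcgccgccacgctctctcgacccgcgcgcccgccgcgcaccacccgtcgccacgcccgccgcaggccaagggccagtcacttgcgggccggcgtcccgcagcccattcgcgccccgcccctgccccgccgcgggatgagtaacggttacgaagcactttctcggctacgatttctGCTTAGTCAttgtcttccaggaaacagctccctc
TXNRD1 (chr12:104215529-104215778, forward strand): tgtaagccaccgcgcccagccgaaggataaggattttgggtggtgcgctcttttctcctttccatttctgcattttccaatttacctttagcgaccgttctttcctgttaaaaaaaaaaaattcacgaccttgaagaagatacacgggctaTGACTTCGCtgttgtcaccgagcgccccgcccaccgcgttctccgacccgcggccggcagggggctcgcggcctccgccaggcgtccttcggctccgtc
A match is only a string of letters in this window, and elements farther from the start were not searched. KDM2B is known to bind unmethylated CpG-rich DNA through its CxxC domain. The windows held 46 CpG dinucleotides in *SRXN1*, 41 in *GCLM*, 39 in *GPX4* and in *NFE2L2*, 36 in *KEAP1*, 32 in *GCLC*, 27 in *TXNRD1* and 14 in *NQO1*, where the median of all windows was 14.

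In shKDM2B cells, *HMOX1*, *SLC7A11* and *NQO1* were higher and *GCLM* was lower than in shControl cells at both thresholds used (adjusted p up to 0.05, and 1.5-fold or more), and the other 6 genes did not pass both thresholds. Of all 21783 genes tested by edgeR's quasi-likelihood test, 13.3% were called higher and 6.79% lower; nothing is read from these shares because the list was chosen from the same contrast. At the adjusted p alone, 6 of the 10 were higher and 3 lower, where 28.4% and 29.5% of all genes were (57.9% in either direction). The 2 groups did not overlap in CPM for 9 of the 10 genes, the exception being *GPX4*, but this was so for 77.6% of all genes with 2 libraries a group. Libraries of the same group differed by no more than 0.16 on the log2 scale for any of the 10. Their summed share of all counts was 0.114% and 0.115% in shControl and 0.285% and 0.277% in shKDM2B, and 0.0836% and 0.0844% against 0.126% and 0.121% without *HMOX1*.

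**Figure D1:**
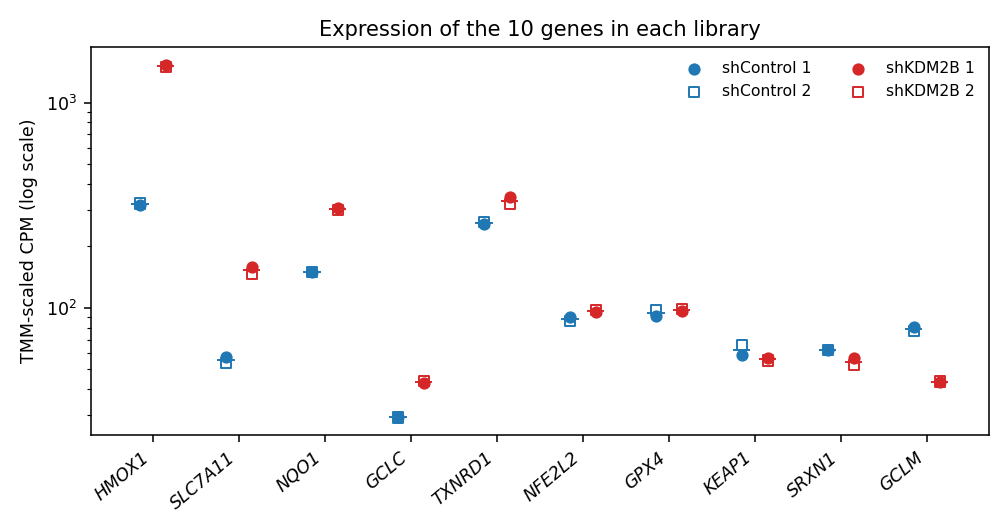
TMM-scaled CPM (log scale) of each of the 10 genes in the 4 libraries, with shControl in blue and shKDM2B in red; circles are libraries numbered 1, squares those numbered 2, and short lines the group means. *HMOX1* lies at 316.8 and 321.7 CPM in shControl and at 1525 and 1490 in shKDM2B, while the libraries of *GPX4* overlap between the groups.

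TMM takes most genes as unchanged. When the median of 77 ribosomal protein genes was set to no change in its place (ribosomal centring), the median log2FC (log2 of shKDM2B over shControl) of all genes moved from 0.01 to 0.36, and every value below moved up by about as much. Under that scaling 5 of the 10 genes were called higher, with *GCLC* and *TXNRD1* added, and 0 lower. Of all 21783 genes tested, 6221 were then called higher and 468 lower. *SRXN1* and *KEAP1* changed sign.

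Heme oxygenase 1 (*HMOX1*), which breaks heme into biliverdin, iron and carbon monoxide and is controlled by both NRF2 and BACH1, differed most among the 10. The shControl libraries held 9514 and 9366 raw counts of it, and the shKDM2B libraries 53852 and 52014. Both shKDM2B libraries thus lay far above both shControl libraries. The mean CPM was 319.3 ± 3.51 (SD, n = 2) against 1508 ± 24.4 (SD, n = 2), a ratio of 4.72 and a log2FC of 2.24 ± 0.03 (standard error, SE). By mean CPM, *HMOX1* ranked 459 of the 21783 genes in shControl and 40 in shKDM2B, and it took 0.0303% and 0.0307% of the counts in shControl against 0.159% and 0.156% in shKDM2B. By fold change it ranked 302 from the top. The gene (ENSG00000100292) spans 35776354 to 35790207 of chromosome 22 (GRCh37), on the forward strand, and shares no exonic bases with another gene.

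*SLC7A11*, the value of which led to the choice of the list, had 1730 and 1560 counts in the shControl libraries and 5589 and 5091 in those with shKDM2B. The groups did not overlap, at 57.6 and 53.6 CPM against 158.3 and 145.9. The log2FC was 1.45 ± 0.04 (SE), and 1.39 to 1.51 with any 1 library left out. *SLC7A11* (ENSG00000151012) spans 139085251 to 139163503 of chromosome 4 (GRCh37), on the reverse strand. It shares 9.0% of its exonic bases with the antisense gene *SLC7A11-AS1*, which had 1538 and 1390 counts under shControl and 4529 and 4161 under shKDM2B, a log2FC of 1.32. The sources used here give no strand setting for the counting, and without it reads on the shared bases cannot be assigned to either gene. The rest of the exonic bases of *SLC7A11* lie outside the exons of *SLC7A11-AS1*. The part of the shared bases in the counts of either gene was not tested.

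The gene for the heavy chain of the antiporter did not pass both thresholds. *SLC3A2*, which encodes the CD98 heavy chain shared by several amino acid transporters, was at 150.0 and 158.4 CPM in shControl and 144.5 and 132.2 in shKDM2B. Its log2FC was -0.16, under 1.5-fold, and 0.19 under ribosomal centring; it is among the ATF4 target genes below and is given without a p-value. Within a library, the count of *SLC7A11* relative to that of *SLC3A2* was 0.384 and 0.338 in shControl and 1.10 in both shKDM2B libraries; such a ratio does not depend on the scaling.

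*NQO1*, which encodes the quinone reductase most often used as a readout of NRF2, was at 149.8 and 149.3 CPM in shControl and 307.2 and 300.1 in shKDM2B. The 2 libraries of a group were close and the groups far apart, with a log2FC of 1.02 ± 0.03 (SE). *NQO1* (ENSG00000181019) spans 69740899 to 69760571 of chromosome 16 (GRCh37), on the reverse strand. A long noncoding RNA, ENSG00000261602, lies wholly within its exons on the other strand and had 468 to 680 counts against 4347 to 10850 for *NQO1*.

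The subunit genes of glutamate-cysteine ligase had fold changes of opposite sign, under either scaling. The catalytic subunit gene *GCLC* was at 29.5 and 29.2 CPM in shControl and 43.1 and 43.8 in shKDM2B, which gave a log2FC of 0.57 ± 0.04 (SE). This was a ratio of 1.48, just under the 1.5-fold threshold, and *GCLC* was not called. The modifier subunit gene *GCLM*, the product of which raises the activity of GCLC, was at 80.45 and 76.95 CPM in shControl and 43.4 and 43.8 in shKDM2B. Its log2FC was -0.85 ± 0.04 (SE), and it was the gene of the 10 with the lowest fold change, ranking 757 from the bottom of all genes. Under ribosomal centring, *GCLC* reached 0.91 and *GCLM* -0.51, so that *GCLM* no longer passed 1.5-fold. The ratio of *GCLC* to *GCLM* counts was 0.366 and 0.379 in shControl and 0.994 and 1.00 in shKDM2B, and per length of the transcript it was 0.473 and 0.490 against 1.28 and 1.29. *GCLC* (ENSG00000001084) lies on chromosome 6 of GRCh37 from 53362139 to 53481768 and *GCLM* (ENSG00000023909) on chromosome 1 from 94350755 to 94375012, both on the reverse strand; *GCLC* shares 9.7% of its exonic bases with noncoding RNAs and *GCLM* none.

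**Figure D2:**
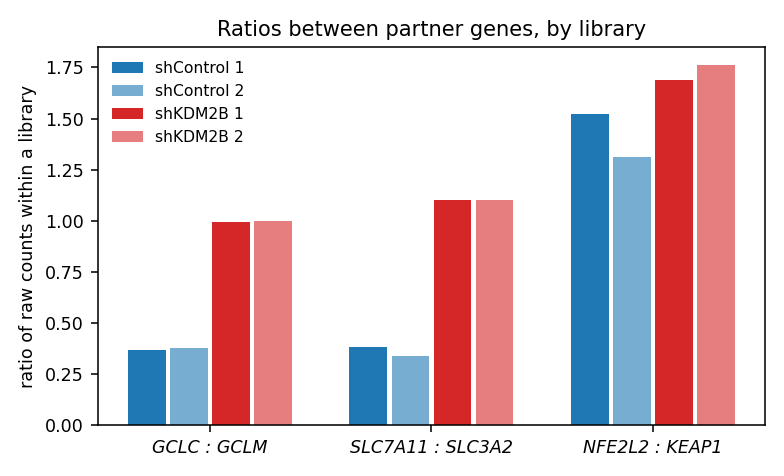
Ratio of raw counts of 2 partner genes within each library, for *GCLC* over *GCLM*, *SLC7A11* over *SLC3A2* and *NFE2L2* over *KEAP1*; bars start at 0, with shControl in blue and shKDM2B in red. The first 2 ratios lie between 0.338 and 0.384 in shControl and between 0.994 and 1.10 in shKDM2B.

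None of the 3 genes of the thioredoxin and lipid peroxide branch (*TXNRD1*, *SRXN1* and *GPX4*) was called under TMM. Thioredoxin reductase 1 (*TXNRD1*), a selenoenzyme that keeps cytosolic thioredoxin reduced, was at 256.1 and 262.1 CPM in shControl and 346.0 and 320.1 in shKDM2B, which gave a log2FC of 0.36 ± 0.03 (SE), and 0.71 under ribosomal centring. Sulfiredoxin (*SRXN1*), which restores overoxidized peroxiredoxins, was at 61.9 and 62.1 CPM against 56.8 and 52.5, a log2FC of -0.18 ± 0.04 (SE) that turned to 0.17 when centred. *GPX4* (ENSG00000167468) was at 90.8 and 97.1 CPM in shControl and 96.2 and 98.3 in shKDM2B; the libraries overlapped, and the log2FC was 0.05 ± 0.04 (SE), and 0.40 when centred. *SRXN1* (ENSG00000271303, chromosome 20 of GRCh37, 627259 to 633844, reverse strand) shares 90.7% of its exonic bases with the coding gene ENSG00000270299 on the same strand. That gene had 1865, 1810, 2019 and 1842 counts in the 4 libraries where *SRXN1* had 1859, 1809, 2006 and 1833. The rows of *SRXN1* and ENSG00000270299 may thus hold mostly the same reads (not tested), and the value of *SRXN1* cannot be told apart from that of its neighbor. *TXNRD1* (ENSG00000198431) lies on chromosome 12 of GRCh37 from 104609557 to 104744085 and *GPX4* on chromosome 19 from 1103981 to 1106790, both on the forward strand and without shared exonic bases.

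The mRNAs of NRF2 and of its repressor were not called under TMM or under ribosomal centring. *NFE2L2* was at 89.8 and 86.5 CPM in shControl and 95.7 and 97.4 in shKDM2B, which gave a log2FC of 0.13 ± 0.04 (SE), and 0.48 under ribosomal centring. *KEAP1* was at 59.0 and 66.1 CPM against 56.6 and 55.4, a log2FC of -0.16 ± 0.04 (SE), which turned to 0.19 under ribosomal centring. The 2 shControl libraries of *KEAP1* differed by 0.16 on the log2 scale, as much as the groups, and its log2FC ran from -0.23 to -0.07 with 1 library left out. In the annotation used here, *NFE2L2* (ENSG00000116044, chromosome 2 of GRCh37, 178083395 to 178257484, reverse strand) shares 38.4% of its exonic bases with neighbors, mainly *HNRNPA3* on the other strand, with 9699 and 9102 counts in the shControl libraries and 7188 and 7074 in those of shKDM2B. *KEAP1* (ENSG00000079999) spans 10596801 to 10614234 of chromosome 19 on the reverse strand and shares none. The count ratio of *NFE2L2* to *KEAP1* was 1.52 and 1.31 in shControl and 1.69 and 1.76 in shKDM2B.

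**Figure D3:**
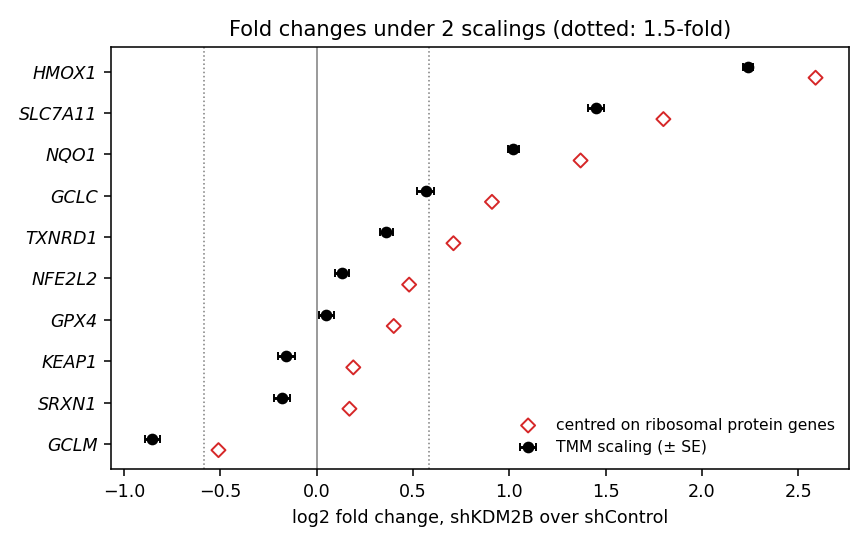
Log2 fold change (shKDM2B over shControl) of the 10 genes under TMM scaling (black circles) and under ribosomal centring (red diamonds). Bars are ± 1 standard error, derived from the F statistic of edgeR's test, and dotted lines mark 1.5-fold. Values under TMM run from 2.24 for *HMOX1* to -0.85 for *GCLM*, and *SRXN1* and *KEAP1* lie on opposite sides of 0 under the 2 scalings.

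Per length of the canonical transcript, the 10 genes spanned a wide range of levels in shControl. *HMOX1* was at 205.4 ± 2.26 (SD, n = 2) CPM per kilobase, followed by *GPX4* at 110.4 ± 5.25, *TXNRD1* at 67.1 ± 1.11, *NQO1* at 59.3 ± 0.132 and *NFE2L2* at 36.1 ± 0.964 (each SD, n = 2). *SRXN1* at 24.5 and *KEAP1* at 24.4 came next and did not differ beyond the spread of *KEAP1* (22.99 and 25.75), and then *GCLM* at 16.1, *GCLC* at 7.75 and *SLC7A11* at 5.76. In shKDM2B, *HMOX1* was at 970.2, *NQO1* at 120.4 and *GPX4* at 114.3, whereas *SLC7A11* at 15.8 and *GCLC* at 11.5 lay above *GCLM* at 8.92. By this length, *SLC7A11* had the lowest level of the 10 in shControl and *GCLM* in shKDM2B. The order depends on the length assumed. Over all annotated exonic bases, *GCLC* was lowest in both groups, at 3.404 in shControl and 5.043 in shKDM2B. Next came *SLC7A11* at 5.76 and *NFE2L2* at 5.89 in shControl, and *NFE2L2* at 6.448 and *GCLM* at 8.03 in shKDM2B.

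Over the 4 libraries, the genes with a pattern most like that of *SLC7A11* among 13845 genes with a symbol and a mean count of at least 50 were *KRT75*, *RNF152*, *PLK2*, *GUCY1A2* and *TPPP*, which encode a keratin, a ubiquitin ligase, a polo-like kinase, a guanylate cyclase subunit and a tubulin-binding protein. Likeness was the Euclidean distance of mean-centred log2 CPM, which was 0.0324 for *KRT75* and 0.0618 for *TPPP*. The fold change is part of that measure, so that the likeness of these 5 genes in it is no finding of its own.

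Of 16 regulators and partners of NRF2, 2 rose and 1 fell, shares close to the 13.3% and 6.79% of all genes, and the median log2FC was -0.23, where that of all genes was 0.01. *SQSTM1*, which encodes an autophagy receptor that can capture KEAP1 and is itself an NRF2 target, rose from 573.0 and 584.5 CPM to 1481 and 1435 (log2FC 1.33 ± 0.03 SE, edgeR adjusted p = 3.10e-25). *SQSTM1* shares 22.4% of its exonic bases with other genes. *NFE2*, named after its value was seen, rose from 7 and 3 counts to 31 and 31. *MAFF*, which encodes a small MAF protein, fell from 78.3 and 76.9 CPM to 28.03 and 28.74 (log2FC -1.45, adjusted p = 1.68e-21), and it also fell under ribosomal centring, by 1.10 on the log2 scale. *MAFG*, another small MAF gene, had a log2FC of 0.52 (adjusted p = 3.03e-11), under 1.5-fold, and 0.59, past it, without shControl 2. *BACH1*, the repressor that competes for NRF2 sites, had a log2FC of -0.53 (adjusted p = 1.91e-10) and *GSK3B*, a kinase that marks NRF2 for degradation, -0.44 (adjusted p = 9.77e-11), both under 1.5-fold. Without shControl 1, *NFE2L3* (0.69) passed as well, and when centred the median of the list was 0.11.

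Of 32 other NRF2 target genes measured, 10 rose, 1 fell and 21 did not pass the thresholds, beside 13.3% and 6.79% of all genes. At the adjusted p alone, 21 were higher and 4 lower, beside 28.4% and 29.5% of all genes. The median log2FC was 0.32, and 0.66 under ribosomal centring. *TRIM16*, which encodes a ubiquitin ligase, rose from 44.9 and 43.7 CPM to 145.7 and 143.9 (log2FC 1.71 ± 0.04 SE, edgeR adjusted p = 6.63e-24); 28.7% of its exonic bases are shared with neighbors. *FTL* and *FTH1*, which encode the light and heavy chains of the iron store ferritin, rose by 0.94 (adjusted p = 2.52e-22) and 0.62 (adjusted p = 3.45e-19) on the log2 scale, and *ABCC3*, which encodes a drug and conjugate exporter, by 1.08 (adjusted p = 2.04e-18). *FTH1* shares 63.2% of its exonic bases with its neighbor *BEST1*. The gene that fell was *PRDX1* (-0.75), which did not reach 1.5-fold under ribosomal centring (-0.40). It shares 29.8% of its exonic bases with other genes.

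Of 22 genes of cystine supply and glutathione synthesis and turnover, 2 rose, 0 fell and 20 did not pass both thresholds, beside 13.3% and 6.79% of all genes. At the adjusted p alone of the same edgeR test, 6 were higher and 9 lower, beside 28.4% and 29.5% of all genes. An unadjusted p under 0.05 gave 7 and 9, and DESeq2 also called 2 and 0. *SLC3A2* and *CHAC1*, both lower at the adjusted p alone, are also among the ATF4 target genes below. Their part in these counts is a description and no independent test. *GGT5*, which encodes a gamma-glutamyl transferase that cleaves glutathione conjugates outside the cell, was counted 20 and 23 times in shControl and rose to 237 and 247 (log2FC 3.24, standard error 0.17, adjusted p = 2.01e-15). *GSR*, the reductase that regenerates glutathione, rose from 69.0 and 71.0 CPM to 109.4 and 106.3 (log2FC 0.62, adjusted p = 3.12e-14). *GSS*, which completes glutathione synthesis after the ligase, had a log2FC of -0.43 (adjusted p = 1.07e-10), the dipeptidase gene *CNDP2* -0.57 (adjusted p = 4.46e-13) and *GGT7* 0.50 (adjusted p = 4.14e-12), none of them past 1.5-fold. Without shControl 1, *CNDP2* passed at -0.59, and without shControl 2 or shKDM2B 2 *CTH*, a gene of cysteine synthesis from methionine, passed at -0.64 and -0.66, against -0.53 with all libraries. The median of the list was -0.05, and 0.30 when centred.

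**Figure D4:**
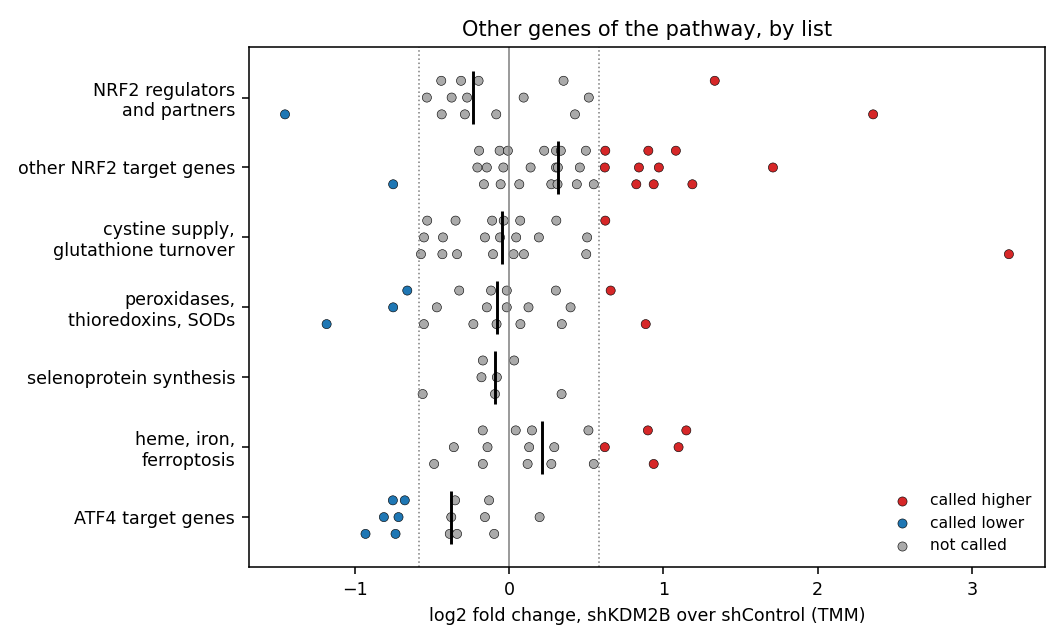
Log2 fold change (TMM scaling) of every tested gene in 7 lists around the 10 genes; each point is a gene, red if called higher, blue if called lower and gray if not called, black bars are list medians and dotted lines 1.5-fold. A gene may stand in more than 1 list. Medians run from 0.32 for the other NRF2 target genes to -0.38 for the ATF4 target genes, and the point farthest to the right is *GGT5* at 3.24.

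Of 19 peroxidases, thioredoxins and superoxide dismutases, 2 rose and 3 fell, beside 13.3% and 6.79% of all genes. *GPX1*, the main cytosolic glutathione peroxidase, rose from 65.7 and 71.6 CPM to 128.1 and 125.5 (log2FC 0.89 ± 0.04 SE, edgeR adjusted p = 5.29e-17), and *CAT*, which encodes catalase, by 0.66 (adjusted p = 3.11e-13). *GPX1* shares 39.9% and *PRDX1* 29.8% of their exonic bases with other genes. *PRDX5*, a peroxiredoxin of mitochondria and peroxisomes, fell from 108.6 and 110.4 CPM to 48.7 and 47.9 (log2FC -1.18, adjusted p = 4.56e-20), and *PRDX1* from 271.5 and 270.4 to 160.0 and 162.2 (adjusted p = 3.47e-18). *TXNL1*, named after its value was seen, fell by 0.66 and was at -0.56 without shControl 1. Under ribosomal centring, *PRDX5* (-0.83) was past 1.5-fold, and *PRDX1* (-0.40) and *TXNL1* (-0.31) were not. Of 7 genes that make selenoproteins, a class to which GPX4 and TXNRD1 belong, 0 were called by edgeR, and DESeq2 also called 0. At the adjusted p alone, 1 was higher and 2 lower, beside 28.4% and 29.5% of all genes. An unadjusted p under 0.05 also gave 1 and 2. *SECISBP2*, which reads the selenocysteine signal, had a log2FC of 0.34 (adjusted p = 6.71e-08), and *TRNAU1AP* -0.56 (adjusted p = 4.40e-07), the latter past 1.5-fold without shControl 1 (-0.64) or shKDM2B 1 (-0.59). *SEPHS1* had a value of -0.17 (adjusted p = 0.000804) and *EEFSEC* -0.18 (adjusted p = 0.105), both of the other sign when centred.

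Of 18 heme, iron and ferroptosis genes measured, 5 rose, 0 fell and 13 did not pass, beside 13.3% and 6.79% of all genes. There were 11 higher and 5 lower both at the adjusted p alone, beside 28.4% and 29.5% of all genes, and at an unadjusted p under 0.05; DESeq2 called 5 and 0. Besides the ferritin genes, *ALAS1*, which starts heme synthesis, rose from 43.1 and 45.4 CPM to 99.8 and 96.1 (log2FC 1.15 ± 0.04 SE, edgeR adjusted p = 4.47e-19). *SAT1*, a polyamine acetyltransferase, rose by 0.90 (adjusted p = 4.37e-18), and *ALOX12*, a lipoxygenase gene named after its value was seen, by 1.10. Other genes of heme synthesis and breakdown were not called: *FECH*, which completes heme synthesis, was at 0.13 (adjusted p = 0.0881) and *HMOX2*, the constitutive heme oxygenase gene, at 0.27 (adjusted p = 0.00208), both named after their values were seen. The median of the list was 0.21. Without shControl 1, *GCH1* (0.59) and, without shKDM2B 1, *BLVRB* (0.59) passed 1.5-fold as well.

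*SLC7A11* is known to be a target of ATF4, the factor of the amino acid response, as well as of NRF2. The list of the 10 genes was picked by the rise of *SLC7A11* against stress genes, which ATF4 targets belong to, so that the values of these genes are also a description, without p-values. Of 14 genes comprising *ATF4* and its targets, 0 were called higher and 6 lower, where 13.3% and 6.79% of all genes were, and nothing is read from the difference. The median log2FC was -0.38. At the adjusted p alone, as at an unadjusted p under 0.05, 1 was higher and 13 lower, where the adjusted p alone gave 28.4% and 29.5% of all genes, and DESeq2 called 0 and 6. *DDIT3*, which encodes a stress-induced transcription factor, was at 30.9 and 29.4 CPM in shControl and at 15.9 in both shKDM2B libraries (log2FC -0.93 ± 0.06 SE). *ASNS*, the asparagine synthetase gene, was at -0.75, *PHGDH*, which starts serine synthesis, at -0.72 and *VLDLR* at -0.67 on the log2 scale, all called lower. *ATF4* itself had a value of -0.37, under 1.5-fold. Under ribosomal centring, 0 of the 14 passed in either direction, where 6221 of all 21783 genes were called higher and 468 lower. *DDIT3* was then at -0.58, *ASNS* at -0.41, *PHGDH* at -0.37 and *VLDLR* at -0.33. *DDIT3* shares 39.6% and *ASNS* 49.3% of their exonic bases with other genes.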

How the data were processed

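Log2FC is the log2 fold change of shKDM2B over shControl, ± its standard error (SE) where given, and all adjusted p values are from edgeR's quasi-likelihood test. The SE was calculated as the absolute log2FC divided by the square root of the F statistic of that test. Polyadenylated RNA of 4 U87MG libraries was read from a single end over 50 bp, with 3 lanes a library. The authors converted reads with CASAVA 1.8.2, aligned them to hg19 with TopHat2 2.0.11 and handled them with SAMtools 0.1.19.0, per the submitters' processing notes, and counted them on Ensembl annotation. The deposited table holds raw counts per gene with lanes combined. It also holds normalized values, here named a signal, which the authors made by dividing the counts by a DESeq size factor (0.9041 to 1.1054), and the authors' fold changes and p-values, which were not used. The sources used here give neither the Ensembl release nor the strand setting.

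Raw counts of the 21783 genes with a mean of at least 10 in either group were scaled by TMM and compared by edgeR 4.0.16's quasi-likelihood test (R 4.3.3), without covariates, with Benjamini-Hochberg adjustment over all genes. Genes were called at an adjusted p of at most 0.05 and 1.5-fold. The common biological coefficient of variation was 2.62%. Within groups, libraries varied beyond sampling noise, with a median chi-square per gene of 0.656 in shControl and 0.590 in shKDM2B, where sampling gives 0.455. The 10 genes (members) and the lists, which were written by role, were chosen with earlier results of these data known. Named are the 10 members, *KDM2B*, up to 4 genes of smallest adjusted p in each list, 6 partner genes and the 5 genes most like *SLC7A11*. Of the listed genes, *ALDH3A1*, *SLC7A9*, *GPX5*, *GPX6*, *GPX7*, *TXNIP*, *SLC40A1*, *NCOA4* and *ALOX15* were not analysed here, and *OPLAH* and *ALOX5* were under the filter.

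Lengths, positions and shared exonic bases came from GENCODE release 44 lifted to GRCh37, the assembly of hg19, with bedtools 2.31.1, where 21646 of the 22578 genes had an entry. On simulated counts of 21297 genes, the same test called 44% of 50 genes changed 1.5-fold (84% by adjusted p alone) and 100% of 50 changed 2-fold. A change of 1.5-fold equals the fold threshold, so that the 44% follows in part from the rule itself. The changed genes all had a mean count of at least 50 and were few, whereas 57.9% of all genes passed the adjusted p in these data. Alternatives changed the filter, the scaling, the tool (DESeq2 1.42.0), the fold threshold, the library left out and a block for the replicate number.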

Additional observations from a re-analysis of the deposited data

How the results depend on the processing

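Under ribosomal centring, 6221 of all genes were called higher and 468 lower, against 2887 and 1478 under TMM, so that the calls were 93.0% higher in place of 66.1%. The counts called higher then became 5 of the 10 genes described, 5 of the NRF2 regulators, 19 of the other NRF2 target genes, 5 of the cystine and glutathione genes, 4 of the peroxidases and thioredoxins, 1 of the selenoprotein synthesis genes and 9 of the heme and iron genes, and the counts called lower became 0 of the 10, 0 of the other NRF2 target genes, 1 of the peroxidases and thioredoxins and 0 of the ATF4 target genes.

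At the adjusted p without a fold threshold, 6188 of all genes were higher and 6416 lower. In the same order of lists, higher and lower genes numbered 6 and 3, 5 and 9, 21 and 4, 6 and 9, 4 and 9, 1 and 2, 11 and 5 and, for the ATF4 target genes, 1 and 13.

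With 1 library left out, the genes called ranged from 2761 to 2823 higher and from 1426 to 1531 lower over all genes; a group left with 1 library was assumed to vary like the other. The 10 genes described kept 3 higher and 1 lower in each case, the count called lower ranged from 0 to 1 for the cystine and glutathione genes and for the selenoprotein synthesis genes, and the other lists moved by 1 gene at most. No filter, DESeq2 size factors and DESeq2 itself changed no call among 41 of the named genes. These were the 10 described, *KDM2B*, the partner genes and the genes of smallest adjusted p in each list. The genes most like *SLC7A11* and those named for other reasons were not part of the 41. Over the table, DESeq2 called 2162 genes higher and 1275 lower. A replicate block gave 2927 higher and 1482 lower and changed none of the 41 calls. Same-numbered libraries deviated together only weakly (correlation of deviations from group means 0.164), and with 2 numbers the block does not show a pairing. No outlier test was possible with 2 libraries a group, and the cause of the difference between scalings was not tested.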
